A study of Homo sapiens with 12 samples.

Results

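Mitochondrial ribosomal proteins are the nuclear-encoded protein components of the ribosome that works inside mitochondria. Their genes were taken from the array by symbol: MRPL or MRPS followed by a number, on probe sets (groups of short probes that read a single transcript) whose annotation names 1 gene only. A gene with several probe sets was read from the one with the highest mean over the 12 arrays. This gave 51 genes, with 64 probe sets between them, out of 11963 genes read in the same way from 22215 probe sets. By the place of the protein in the assembled ribosome, 18 belong to the small subunit and 33 to the large one, which also holds MRPS18A and MRPS30 despite their names. A bacterial counterpart was assigned to 11 of the small-subunit and 20 of the large-subunit proteins. The other 7 and 13 were classed as without one, and that class also holds MRPS18B and MRPS18A, although both are relatives of bacterial S18.

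The mitochondrial ribosome translates the few messenger RNAs that mitochondrial DNA encodes, all of them for subunits of the respiratory chain and ATP synthase. Its RNA parts are made inside the organelle, whereas every protein part is made in the cytosol and imported, so assembly needs balanced supply from both compartments. The small subunit holds the messenger RNA and the decoding centre, and the large subunit joins the amino acids and feeds the new chain into the inner membrane.

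RKO cells, an established human colorectal carcinoma line, were grown for 24 h in 4 groups of 3 arrays each: thymoquinone (TQ) at 20 µM, 5-fluorouracil (5-FU) at 10 µg/mL (76.8 µM), both drugs at those concentrations given together (MIX), and control cells. TQ is a quinone from Nigella sativa seed, and 5-FU is a fluorinated uracil that blocks thymidylate synthesis and enters RNA and DNA. The labels call the controls untreated. The methods give control cells the solvent DMSO, but in other places they also call the controls untreated. If the controls had no solvent, the solvent cannot be told apart from the drugs. A single cell line was used. The methods speak of independent biological replicates for the study, without describing the cultures behind the arrays, so the p-values cover the variation among these arrays of that line.

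The values are log2 signals normalized by RMA, and the array medians lay between 6.33 and 6.55. RKO cells showed KRT18 at 12.24 and EPCAM at 9.20 on average, while the other 4 epithelial markers were lower, KRT8 the highest of them, followed by CLDN4 at 4.08, the junction gene CDH1 at 3.73 and KRT19 at 3.66. The 6 intestinal markers ranged from 3.84 (VIL1) to 6.75 (CDX2). Of the cell types that the line should lack, the 5 leukocyte markers lay between 2.94 (LYZ) and 5.21 (CD3D), the 4 endothelial ones between 4.11 (CDH5) and 5.05 (VWF), and the 6 fibroblast ones between 2.41 (LUM) and 8.18 (COL1A1). A pair of arrays stood apart from their replicates, 5-FU replicate 3 and MIX replicate 2, called displaced arrays here. The interquartile range of all genes' differences from the control mean was 1.19 log2 units on 5-FU replicate 3 and 0.48 on MIX replicate 2, against 0.09 to 0.41 on the other 10 arrays. The poly-A spike signal was 9.59 and 9.06 on these 2 arrays, against 8.35 to 9.07 on the others, and all 5 marker lists (epithelial, intestinal, leukocyte, fibroblast and endothelial) had their 2 highest means there. The part of spike recovery or of the marker signals in the results was not tested. A total of 12 arrays limits the precision, and counts of genes past the threshold are given with and without these 2 arrays.

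Most of the 51 genes were strongly expressed in RKO cells. Their mean log2 signals over 12 arrays had a median of 10.95, against 7.18 for all genes read, and 49 of the 51 lay above that overall median. MRPL57, a large-subunit protein, was brightest at 12.35, and 6 genes reached 12, among them MRPL3 (12.23) and MRPL18 (12.02). Only MRPS18C (4.24), MRPL41 (6.94) and MRPL52 (7.40) were under 8, and brightness between different probe sets does not rank transcript amounts. Within a group the genes varied little: the median SD of a member was 0.101 in TQ, 0.320 in 5-FU, 0.189 in MIX and 0.056 in control cells, against 0.117, 0.433, 0.222 and 0.091 for all genes. Without the displaced arrays it was 0.073 in 5-FU and 0.062 in MIX.

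**Figure D1:**
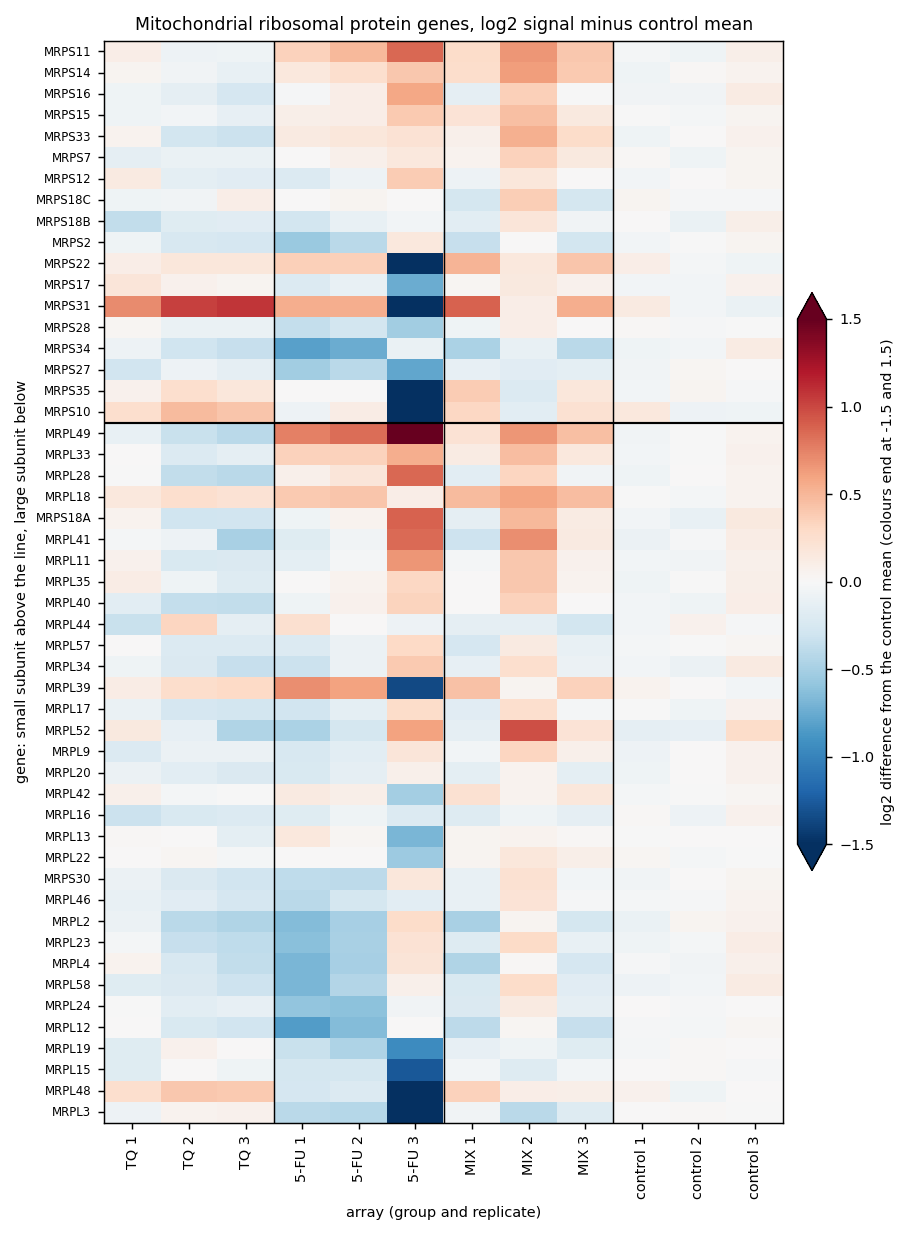
Differences of each gene's log2 signal from its control mean on the 12 arrays (columns: TQ, 5-FU, MIX, control), with small-subunit genes above the line and large-subunit genes below it, each ordered by the 5-FU change. MRPL49 is high on all 5-FU arrays, and 5-FU replicate 3 stands out against its replicates, with MRPS31, MRPS10, MRPS22 and MRPL39 far below control there.

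Few mitochondrial ribosomal protein genes passed the threshold with any of the 3 treatments, an adjusted p under 0.05 in limma. Across the 4 groups 2 of the 51 genes differed by the moderated F test, MRPL49 and MRPS27 (3.92%, against 8.19% of all genes). At an unadjusted p under 0.05, 12 did, against 2629 of all 11963 genes. When the displaced arrays were left out 25 differed (49%, against 44.9% of all genes). With 5-FU 1 gene rose (1.96%, against 4.32% of all genes) and 2 fell (3.92%, against 2.97%), or 3 in all against a background of 7.29%. With MIX 1 rose (1.96%, against 1.78%) and 0 fell (against 0.853%), with a background of 2.63% in either direction. With TQ 0 passed, against a background of 0.267% in either direction, 0.15% higher and 0.117% lower. At an unadjusted p under 0.05, 0 genes were higher and 1 lower with TQ, 5 higher and 11 lower with 5-FU, and 5 higher and 0 lower with MIX. Shares past the adjusted threshold were near or below the background, so by these calls the genes as a group did not stand out on all 12 arrays. The unadjusted level differed for decreases after 5-FU: 11 of 51 genes, a larger share than 1037 of all 11963. Increases after 5-FU (5 of 51, against 1304) took a similar share. For MIX, 5 increases stood against 760, a somewhat larger share, and 0 decreases against 574. TQ had 0 increases against 403 and 1 decrease against 754, both smaller shares. The absence of calls has a bound: the 95% interval of the change stayed within 2-fold either way for 45 of 51 genes with TQ, 43 with 5-FU and 45 with MIX, and without the displaced arrays for 50, 49 and 50. In bulk RNA, fewer cells that express a gene and less RNA per cell cannot be told apart.

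MRPL49, a large-subunit protein specific to mitochondria, rose with 5-FU, the largest of the 5-FU changes over the 51 genes. Its log2 signal was 11.80, 11.89 and 12.54 on the 5-FU arrays, against 11.00, 11.04 and 11.10 on the control arrays. The 5-FU arrays were thus all above the controls, the displaced replicate highest, and the mean difference was 1.03 (SE 0.19, adjusted p = 0.010), or 2.04-fold. The TQ arrays read 10.94, 10.72 and 10.64, all below the controls (difference -0.28, adjusted p = 0.71), and the MIX arrays 11.27, 11.71 and 11.50, all above them (difference 0.45, adjusted p = 0.42). MRPL49 was lower in TQ than in 5-FU by a log2 difference of -1.31 (adjusted p = 0.0030). MIX minus 5-FU was -0.59 (adjusted p = 0.30), with no overlap of the MIX and 5-FU arrays. Without the 2 displaced arrays the 5-FU change was 0.80 (adjusted p = 3.0e-04). The call was lost when control replicate 1 was left out, and when 5-FU and control arrays alone were fitted.

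MRPS27, a small-subunit protein with pentatricopeptide repeats that contacts the ribosomal RNA, fell with 5-FU. It read 10.91, 11.02 and 10.65 on the 5-FU arrays and 11.38, 11.46 and 11.44 on the control arrays, with no overlap. The mean was 10.86 ± 0.19 with 5-FU and 11.43 ± 0.042 in control cells (SD, n = 3 each), a difference of -0.56 (SE 0.12, limma adjusted p = 0.016) that was -0.46 without the displaced arrays. The MIX arrays, at 11.31, 11.26 and 11.28, lay between the 5-FU and control arrays, and the difference of MIX from 5-FU was 0.42 (adjusted p = 0.17). TQ arrays read 11.14, 11.35 and 11.30. The call was lost when any 1 control array was left out, and the adjusted p ranged from 7.6e-05 to 0.19 over all alternatives.

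MRPL19, a large-subunit protein with a bacterial counterpart, also fell with 5-FU. Its signals were 9.94, 9.81 and 9.33 on the 5-FU arrays and 10.24, 10.29 and 10.28 on the control arrays. The 5-FU arrays lay below all controls, with the displaced replicate lowest, and the difference of -0.58 (SE 0.15, adjusted p = 0.046) was close to the threshold. It kept the call in 2 of 12 fits that left out 1 array each (without 5-FU replicate 1 and without 5-FU replicate 3), and without both displaced arrays it was -0.40 (adjusted p = 0.0078). Of 11 other settings it passed in 5, and it was lost with median centring, the replicate block, the prior with trend and robust fitting, the compared groups alone, and both tests of the methods. TQ arrays read 10.09, 10.33 and 10.28, higher than 5-FU by 0.54 (adjusted p = 0.046).

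MRPL18, the large-subunit counterpart of the bacterial protein that binds 5S ribosomal RNA, rose with MIX. It read 12.24, 12.35 and 12.22 on the MIX arrays and 11.75, 11.73 and 11.81 on the control arrays. The groups did not overlap, and the difference was 0.51 (SE 0.11, adjusted p = 0.038), or 1.42-fold. The single drugs gave smaller differences that did not pass: 0.21 with TQ (11.92, 12.01 and 11.98, adjusted p = 0.62) and 0.30 with 5-FU (12.15, 12.18 and 11.86, adjusted p = 0.16). All treated arrays were above all control arrays, and the interaction (MIX minus TQ minus 5-FU plus control) without the displaced arrays was -0.14 (adjusted p = 0.45). The call for MIX held in 3 of 12 fits without 1 array, those without a 5-FU array, and was lost in the other 9.

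**Figure D2:**
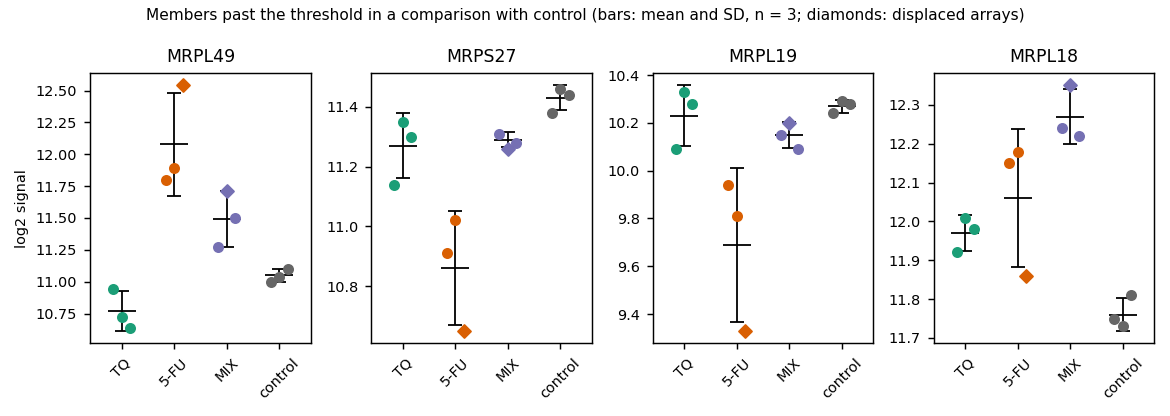
Log2 signal of MRPL49, MRPS27, MRPL19 and MRPL18 on each array of TQ, 5-FU, MIX and control cells, with the group mean and SD (n = 3) as bars and the 2 displaced arrays as diamonds. MRPL49 was 11.80 to 12.54 on the 5-FU arrays, against 11.00 to 11.10 on control arrays, and the 5-FU arrays of MRPS27 and MRPL19 lie below the control arrays.

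Among these 4 genes, 3 start next to a gene on the opposite strand, and the stretches between the starts show how close they lie. Sequences come from the RefSeq table for GRCh38.p14 and run from 30 bases inside the neighbour's transcript to 30 bases inside the member's, in the member's direction, with the stretch between the start sites in capitals. MRPL49 lies 49 bases from FAU, which encodes the cytosolic ribosomal protein RPS30 fused to a ubiquitin-like protein. MRPS27 lies 133 bases from PTCD2, another pentatricopeptide repeat gene, and MRPL18 210 bases from TCP1, a subunit of a cytosolic chaperonin. The positions are chr11:65122104-65122212 on the plus strand, chr5:72320211-72320403 on the minus strand and chr6:159789572-159789841 on the plus strand.
MRPL49: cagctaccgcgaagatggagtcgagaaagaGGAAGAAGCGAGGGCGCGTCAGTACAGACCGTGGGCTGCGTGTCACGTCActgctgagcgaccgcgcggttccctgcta
MRPS27: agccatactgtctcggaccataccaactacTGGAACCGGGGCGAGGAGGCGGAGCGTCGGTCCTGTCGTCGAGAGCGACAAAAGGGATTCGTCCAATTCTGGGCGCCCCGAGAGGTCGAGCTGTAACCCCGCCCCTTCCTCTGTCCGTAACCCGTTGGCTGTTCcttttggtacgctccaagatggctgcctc
MRPL18: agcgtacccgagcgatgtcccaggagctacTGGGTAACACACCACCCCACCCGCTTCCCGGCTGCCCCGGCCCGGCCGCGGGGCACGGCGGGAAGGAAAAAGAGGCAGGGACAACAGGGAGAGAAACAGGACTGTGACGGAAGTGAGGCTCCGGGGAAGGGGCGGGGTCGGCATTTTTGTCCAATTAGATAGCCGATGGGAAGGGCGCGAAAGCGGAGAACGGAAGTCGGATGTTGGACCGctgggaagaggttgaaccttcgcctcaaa

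The neighbours of MRPL49 and MRPS27 gave small differences with 5-FU that did not pass. FAU read 13.74, 13.73 and 13.89 on the 5-FU arrays and 13.62, 13.60 and 13.65 on the control arrays, with no overlap. The difference was 0.16 (adjusted p = 0.41), across 49 bases from MRPL49, where it was 1.03. PTCD2, a dim probe set at 4.66, 4.73 and 4.91 with 5-FU, against 4.72, 4.73 and 4.40 in control cells, differed by 0.15 (adjusted p = 0.54). TCP1 has no probe set that names it alone. The difference between a gene and its neighbour was not tested.

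MRPS11 and MRPL46 are both members and start 320 bases apart, head to head. MRPS11, part of the platform of the small subunit, read 11.22, 11.37 and 11.74 with 5-FU and 10.85, 10.82 and 10.97 in control cells, with no overlap and a difference of 0.56 (SE 0.15, adjusted p = 0.053). MRPL46, a large-subunit protein, read 9.78, 9.92 and 10.02 with 5-FU and 10.15, 10.16 and 10.23 in control cells, also without overlap, a difference of -0.27 (SE 0.11, adjusted p = 0.23). Without the displaced arrays MRPS11 rose by 0.42 (adjusted p = 0.0071) and MRPL46 fell by 0.33 (adjusted p = 0.014), so the 2 genes went opposite ways. A dimmer probe set of MRPS11 (mean 6.64) did not show the rise: it gave 0.01 with 5-FU on all arrays and -0.10 (adjusted p = 0.58) without the displaced ones. The MRPS11 side of their shared stretch is chr15:88467458-88467737 on the plus strand, with the bases before and at the start of MRPS11 in capitals and the first 30 after it in lower case.
MRPS11: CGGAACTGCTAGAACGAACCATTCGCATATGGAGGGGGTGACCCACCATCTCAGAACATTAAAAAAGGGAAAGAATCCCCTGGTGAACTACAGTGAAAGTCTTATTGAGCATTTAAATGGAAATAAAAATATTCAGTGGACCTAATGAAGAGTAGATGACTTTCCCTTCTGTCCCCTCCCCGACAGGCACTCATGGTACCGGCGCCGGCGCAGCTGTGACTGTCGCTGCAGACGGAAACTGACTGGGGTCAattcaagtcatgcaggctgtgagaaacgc

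Promoter windows from 250 bases before to 50 after the start were held for 45 of the 51 genes. A start on the opposite strand lay within 1000 bases, head to head, for 11 of them (24.4%), against 10.7% of 15843 protein-coding genes. The ETS site CCGGAAG, the type of site that the GABP factor of mitochondrial genes binds, was present in 18 windows (40%), against 14.2% of all windows. The YY1 site AAGATGGC was present in 12 (26.7%), against 3.91% of all. The NRF1 site, GCGCA and GCGC with 1 free base between them, was in 3 (6.67%, against 8.58%), the E-box CACGTG in 3 (6.67%, against 8.88%) and the CCAAT box in 12 (26.7%, against 36.4%). The heat shock element, read as GAA, TTC and GAA with 2 free bases between each, was in 1 window, that of MRPL48, against 0.366% of all. Both strands were searched, matches of different motifs could overlap, and a match is a description of the letters. In the stretches above, MRPS27 holds the YY1 letters from position 16 after its start and CCAAT letters from -71, and MRPL18 holds CCAAT letters from -60.

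**Figure D3:**
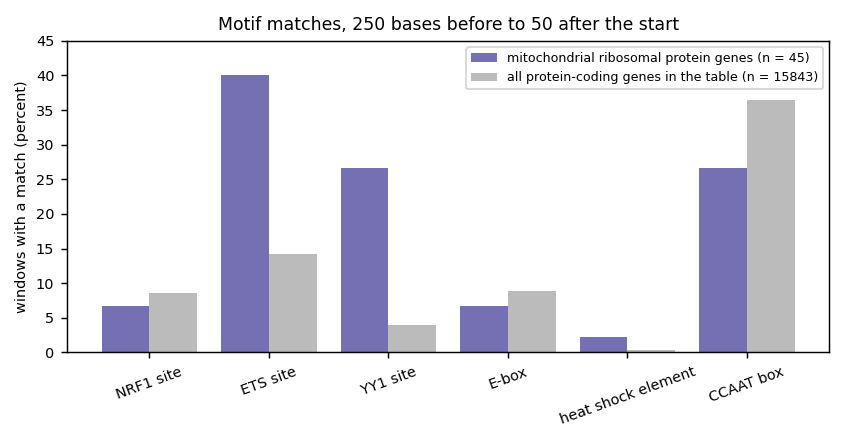
Percent of promoter windows with a match to each motif on either strand, for the 45 mitochondrial ribosomal protein genes with a window (left bars) and for 15843 protein-coding genes (right bars). The ETS site stands at 40% against 14.2% and the YY1 site at 26.7% against 3.91%, while the other motifs differ less.

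More genes passed with 5-FU when the displaced arrays were left out. Without 5-FU replicate 3 and MIX replicate 2, 7 of the 51 genes rose with 5-FU (13.7%, against 14.9% of all genes) and 15 fell (29.4%, against 13.4% of all genes), 22 in all (43.1%, against 28.3%). The median change was -0.122, against -0.007 for all genes read, and with all 12 arrays it was -0.092, against 0.091. On 5-FU replicates 1 and 2 themselves 24 genes lay below all 3 control arrays (47.1%, against 27% of all genes), and 13 lay above them (25.5%, against 26.2%). This set of arrays was chosen after the values were seen, and the 5-FU arm then holds 2 arrays. The small-subunit genes had a median of -0.202 with all arrays and 0.018 without the displaced ones, and the large-subunit genes -0.091 and -0.179.

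Of the 15 genes that fell with 5-FU without the displaced arrays, 11 were among the 33 large-subunit genes and 4 among the 18 small-subunit genes. MRPL12 forms the stalk of the large subunit that recruits translation factors, and it also binds the mitochondrial RNA polymerase. It read 10.73, 10.92 and 11.57 on the 5-FU arrays, against 11.55, 11.54 and 11.60 on the control arrays. Replicate 3 was level with the controls and the other 2 were below them. The difference was -0.49 (adjusted p = 0.22) with all arrays and -0.74 (adjusted p = 3.1e-04) without the displaced ones. MRPL2, next to the peptidyl transferase centre in the bacterial ribosome, read 9.22, 9.37 and 10.14 with 5-FU, against 9.77, 9.91 and 9.93 in control cells, so its displaced replicate lay above the controls. It gave -0.58 (adjusted p = 0.0053) without the displaced arrays. MRPL24 gave -0.60 (adjusted p = 2.5e-04) and MRPL58, a peptidyl-tRNA hydrolase that frees stalled ribosomes, -0.56 (adjusted p = 0.0017). MRPL3, near the catalytic centre, read 12.09, 12.07 and 10.66 with 5-FU, against 12.51, 12.52 and 12.49 in control cells, all 5-FU arrays lower. Its change was -0.90 (SE 0.31, adjusted p = 0.14) on all arrays and -0.42 (adjusted p = 0.0028) without the displaced ones. MRPL4, MRPL15, MRPL19, MRPL23, MRPL46 and MRPS30 were the other large-subunit genes, with changes from -0.60 to -0.26.

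Among small-subunit genes, 4 fell and 3 rose with 5-FU without the displaced arrays. MRPS34, a protein without a bacterial counterpart, read 10.18, 10.25 and 10.90 with 5-FU, against 10.93, 10.96 and 11.12 in control cells, and gave the lowest change of the 51 genes, -0.78 (adjusted p = 2.3e-04). MRPS2 gave -0.48 (adjusted p = 0.0025), MRPS27 -0.46 (adjusted p = 0.0028) and MRPS28, the mitochondrial relative of bacterial S1, -0.31 (adjusted p = 0.014). MRPS28 read 11.37, 11.46 and 11.21 with 5-FU, against 11.75, 11.71 and 11.72 in control cells, and with all 12 arrays its difference of -0.38 missed the threshold (adjusted p = 0.056). MRPS11, MRPS22 and MRPS31 rose by 0.42, 0.36 and 0.54. MRPS22 and MRPS31 had the opposite sign on all 12 arrays, at -0.32 and -0.36, where 5-FU replicate 3 read 8.62 and 6.37 for them while replicates 1 and 2 read 10.63 and 10.63 for MRPS22 and 9.08 and 9.07 for MRPS31.

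Of the large-subunit genes 4 rose without the displaced arrays. MRPL33, which lies near the exit site for transfer RNA in the bacterial ribosome, read 11.75, 11.75 and 11.94 with 5-FU, against 11.36, 11.39 and 11.46 in control cells. No 5-FU array overlapped the controls, and the difference was 0.41 (adjusted p = 0.084) with all arrays and 0.34 (adjusted p = 0.012) without the displaced ones. MRPL33 was lower in TQ than in 5-FU, a call on all 12 arrays, with TQ arrays at 11.41, 11.20 and 11.27. MRPL39, related to a threonyl-tRNA synthetase, read 11.74, 11.64 and 9.69 with 5-FU, against 11.09, 11.04 and 11.00 in control cells, and gave -0.02 with all arrays and 0.65 (adjusted p = 2.8e-04) without the displaced ones. MRPL18 and MRPL49 were the other 2.

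**Figure D4:**
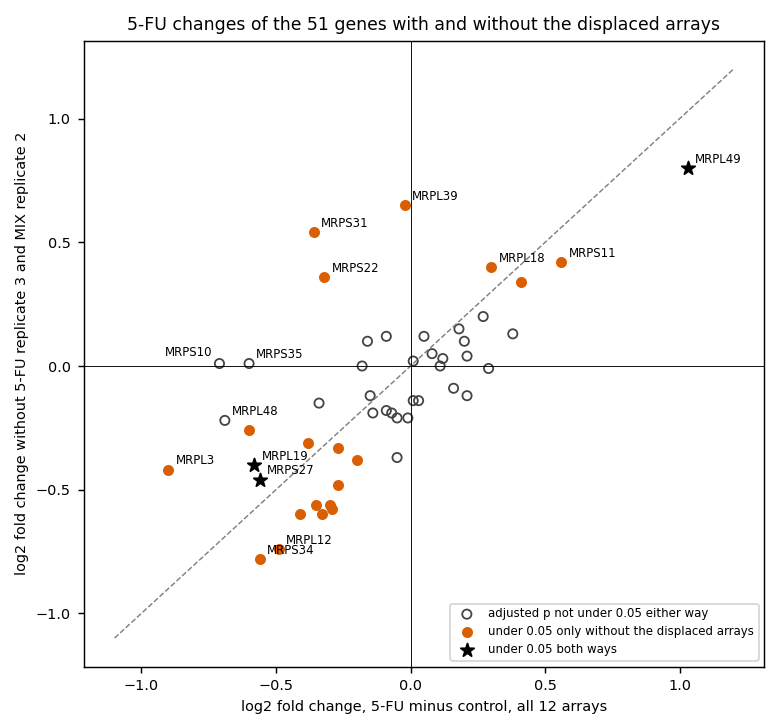
Log2 fold change of each of the 51 genes for 5-FU minus control with all 12 arrays (x axis) and without the 2 displaced arrays (y axis), with equality as a dashed line. MRPL49 is at 1.03 and 0.80 and MRPS34 at -0.56 and -0.78, while MRPS31, MRPS22 and MRPL39 lie far above the line.

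On 5-FU replicate 3 itself, 8 of the 51 genes were more than 2-fold below the mean of the other 5-FU replicates and 0 were more than 2-fold above it, as 6.51% of all genes were. The 8 were MRPL39, close behind MRPS22, and MRPS31 (-2.71), MRPS10 (-2.17), MRPS22 (-2.01), MRPS35 (-1.84), MRPL3 (-1.42), MRPL48 (-1.40) and MRPL15 (-1.01). They were 15.7% of the genes, against 18.9% of all genes that lay as far below, a share near that of all genes. MRPL41, a large-subunit protein, and MRPL52, 2 of the dimmest members, deviated most upwards, by 0.97 and 0.96. MIX replicate 2 deviated from its own replicates in a like pattern, with the same sign for 42 of the 51 genes and a Pearson r of 0.92 across genes, which are not independent replicates. The 8 genes had a longer genomic span, with a median of 31482 bases, against 6568 for the other 43, and over the 51 genes span and deviation had a Spearman correlation of -0.57. Both correlations and the spans are given for the 51 genes only, so they do not show whether other genes behave alike. Whether RNA quality or labelling played a part was not tested, and the values at hand are the differences between 3' and 5' probe sets. For GAPDH it was 0.06 on 5-FU replicate 3 and 0.13 on MIX replicate 2, against 0.05 to 0.09 on the others. For ACTB it was 0.56 and 0.89 on these 2 arrays, against 0.57 to 0.96 on the others.

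TQ alone gave small differences. The 51 genes had a median of -0.124, against -0.090 for all genes, with 11 above 0 and 40 below, and 50 of them were under 1.5-fold. All 3 TQ arrays lay above all 3 controls for 7 genes (13.7%, against 17.5% of all genes), and below them for 16 (31.4%, against 28.9%). MRPS31, a small-subunit protein, had the largest difference: TQ arrays read 9.24, 9.56 and 9.60, against 8.67, 8.49 and 8.43 on control arrays. The groups did not overlap and the difference was 0.94, but the spread shared with the 5-FU arrays gave an SE of 0.59 and an adjusted p of 0.69. Without the displaced arrays it rose with an adjusted p of 6.0e-04, and its other probe set gave 0.81 (adjusted p = 9.9e-04) in that fit.

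In the fit without the displaced arrays 4 genes rose with TQ, MRPS31, MRPS10, MRPL48 and MRPL18 (7.84%, against 15.1% of all genes). MRPL16, MRPL40 and MRPL49 fell (5.88%, against 17.3%), which made 7 genes in all (13.7%, against 32.4%). MRPS10, in the head of the small subunit, read 9.81, 10.03 and 9.98 with TQ, against 9.72, 9.48 and 9.49 in control cells (difference 0.38, adjusted p = 0.013 without the displaced arrays). MRPL48, which carries the heat shock element letters, read 9.71, 9.87 and 9.85, against 9.53, 9.40 and 9.46 (0.35, adjusted p = 0.012). MRPL40, a gene of the 22q11 deletion region, read 10.81, 10.61 and 10.60, against 10.93, 10.91 and 11.07 (-0.30, adjusted p = 0.023). Treated and control arrays did not overlap for any of these 3 genes. The 3 TQ arrays and the 3 control arrays are the same in both fits, so the differences are equal and only the estimate of spread differs.

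With MIX the genes centred near control. The median was 0.039 (all genes 0.014) with all arrays and -0.033 (all genes -0.027) without the displaced ones, and 51 of 51 genes were under 1.5-fold with all arrays. All MIX arrays were above all controls for 13 genes (25.5%, against 13.6% of all genes) and below them for 6 (11.8%, against 11.1%). MRPS14, in the head of the small subunit, read 11.16, 11.53 and 11.29 with MIX, against 10.84, 10.92 and 10.95 in control cells, with no overlap (difference 0.42, adjusted p = 0.11). MRPS7, also a protein of the head, read 10.65, 10.94 and 10.75, against 10.62, 10.54 and 10.64 (0.18, adjusted p = 0.68). MRPS33 gave 0.29 (adjusted p = 0.49) and MRPS11 0.45 (adjusted p = 0.21). Without the displaced arrays 7 genes rose, MRPL18, MRPL39, MRPL49, MRPS11, MRPS14, MRPS22 and MRPS31 (13.7%, against 12.7% of all genes), and 4 fell, MRPL12, MRPS2, MRPS18C and MRPS34 (7.84%, against 10%). Both directions made up 21.6% of the genes, against 22.7% of all genes. MRPS18C was at a signal of about 4, near the array's floor.

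Most genes read slightly higher with MIX than with 5-FU alone, by differences that did not pass the test. MIX minus 5-FU had a median of 0.152 over the 51 genes, against -0.065 for all genes, with 40 above 0 and 11 below. In limma 0 genes were higher (background 0.435%) and 0 lower (background 0.368%), 0 in all against 0.802%. At an unadjusted p under 0.05, 6 were higher and 1 lower, against 568 and 655 of all 11963 genes. All MIX arrays lay above all 5-FU arrays for 10 genes, MRPL3, MRPL15, MRPL18, MRPL19, MRPL22, MRPL46, MRPL48, MRPS17, MRPS27 and MRPS28 (19.6%, against 4.99% of all genes). They lay below for 2, MRPL49 and MRPL44, an RNase III-like protein of the large subunit read at 8.02, 8.03 and 7.88 with MIX and 8.40, 8.16 and 8.08 with 5-FU (3.92%, against 5.31%). With the displaced arrays left out 2 genes were higher in MIX, MRPL24 and MRPL48 (3.92%, against 3.67% of all genes), and 1 was lower, MRPL49 (1.96%, against 3.24%), 3 in all (5.88%, against 6.91%). MIX minus 5-FU and 5-FU minus control share the 5-FU arrays. For MRPS28 the MIX arrays read 11.66, 11.83 and 11.73, against 11.37, 11.46 and 11.21 with 5-FU.

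MIX minus TQ gave 0 calls (background 1.15%, with 1.05% higher and 0.1% lower). At an unadjusted p under 0.05 in limma 9 genes were higher and 0 lower, against 1122 and 401 of all 11963 genes. All MIX arrays lay above all TQ arrays for 13 genes (25.5%, against 20.8% of all genes) and below them for 0 (against 9.79%). Without the displaced arrays MRPL18, MRPL49, MRPS11, MRPS14 and MRPS22 were higher in MIX than in TQ, 5 genes or 9.8%, against 8.55% of all genes, and 0 were lower, against 4.2% (either direction 12.7%). Between the single drugs, TQ minus 5-FU passed the adjusted threshold above 0 for MRPL19 (1.96%, against 3.29% of all genes). It passed below 0 for MRPL33, MRPL49 and MRPS11 (5.88%, against 7.78%), 4 genes in all (7.84%) against a background of 11.1%. MRPL33 gave -0.52 (adjusted p = 0.025), a call lost without TQ replicate 2 and without TQ replicate 3. MRPS11 gave -0.58 (adjusted p = 0.038), which passed in 4 of 12 fits without 1 array. The call for MRPL19 passed in 2 of 12 such fits and that for MRPL49 in 12 of 12. All TQ arrays lay above all 5-FU arrays for 10 genes (19.6%, against 15.9%) and below them for 11 (21.6%, against 24.9%). In the fit without the displaced arrays 13 genes were higher in TQ (25.5%, against 14.1%) and 6 lower (11.8%, against 16.8%), 37.3% in all against 30.9%.

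The interaction term asks whether MIX departs from the sum of the 2 single-drug changes. Its median over the 51 genes was 0.278 with all arrays, against 0.004 for all genes, with 43 above 0, and 0.190 without the displaced arrays, against 0.044, with 40 above 0. On all 12 arrays 0 genes passed (background 0.167%, with 0.125% above 0 and 0.0418% below). At an unadjusted p under 0.05, 4 were above 0 and 0 below, against 539 and 215 of all 11963 genes. Without the displaced arrays 8 passed above 0 (15.7%, against 5.88% of all genes): MRPL12, MRPL23, MRPL24, MRPL46, MRPL58, MRPS27, MRPS30 and MRPS34. MRPL39 and MRPS31 passed below 0 (3.92%, against 5.21%), and the 10 together were 19.6%, against 11.1%. The interaction subtracts the 5-FU arrays and adds the control arrays, so it shares them with 5-FU minus control, with opposite sign. All 8 genes above 0 were among the 15 that fell with 5-FU in that fit, and the 2 below 0 were among the 7 that rose. For MRPS34 in that fit, TQ gave -0.25, 5-FU -0.78 and MIX -0.44, so that the 2 single changes add to a larger decrease than that with MIX, and the interaction was 0.59 (adjusted p = 0.030). MRPL23 had the highest interaction in that fit, 0.67 (adjusted p = 0.030), and MRPS31 the lowest, -0.76 (adjusted p = 0.032). That of MRPL23 came from -0.26 with TQ, -0.56 with 5-FU and -0.16 with MIX.

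The genes around the mitochondrial ribosome were read from lists written with earlier results of these data known. With 5-FU, 2 of 13 mitochondrial tRNA synthetases fell (2.97% of all genes did) and 0 rose, with a median of -0.403, against 0.091 for all genes. With the 2 displaced arrays left out 7 fell (13.4% of all genes did) and the median was -0.302, against -0.007. LARS2, which charges the mitochondrial leucine transfer RNA, read 9.01, 9.11 and 8.98 with 5-FU, against 9.75, 9.79 and 9.76 in control cells, a difference of -0.73 (SE 0.10, adjusted p = 0.0019) that its other probe set also showed (-0.57, adjusted p = 0.0073). The displaced replicate of LARS2 lay with its own group. NARS2, the asparagine enzyme, gave -1.37 (adjusted p = 0.039), with 6.91 on 5-FU replicate 3 and 8.37 and 8.33 on the others, and -0.89 without the displaced arrays.

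Of 34 assembly and mitochondrial gene expression factors, 2 fell and 0 rose with 5-FU, when 2.97% of all genes fell and 4.32% rose. The fit without the displaced arrays had 12 that fell and 3 that rose, when 13.4% of all genes fell and 14.9% rose. NRF1, nuclear respiratory factor 1, which activates nuclear genes for mitochondrial proteins, read 7.11, 7.23 and 7.19 with 5-FU, against 7.98, 7.84 and 8.09 in control cells. The groups were far apart, at -0.79 (SE 0.12, adjusted p = 0.0031). A second of its 4 probe sets passed too (-0.88, adjusted p = 0.0074), and the other 2 were dimmer and did not (-0.18 and -0.49). FASTKD3, a mitochondrial RNA-binding protein, gave -0.83 (adjusted p = 0.046) and -0.55 without the displaced arrays. With TQ and MIX these 2 lists and the 11 translation factors had 0 calls on all 12 arrays in limma, and at an unadjusted p under 0.05 TQ gave 2 higher and 6 lower over the 3 lists and MIX 1 higher and 3 lower. Of all 11963 genes, 403 were higher and 754 lower with TQ at that level, and 760 and 574 with MIX. In the fit that left out the displaced arrays, 3 tRNA synthetases rose and 3 fell with TQ, 3 translation factors rose and 1 fell, and 7 assembly factors rose and 11 fell (15.1% of all genes rose and 17.3% fell). With MIX in that fit 2 tRNA synthetases rose and 3 fell, 1 translation factor rose and 1 fell, and 4 assembly factors rose and 6 fell (12.7% of all genes rose and 10% fell). The second probe set of NRF1, not the one counted, gave -0.76 with MIX (adjusted p = 0.031). The 3 further mitoribosome proteins DAP3, GADD45GIP1 and PTCD3 gave -0.29, -0.10 and -0.41 with 5-FU on all 12 arrays and did not pass. Without the displaced arrays they gave 0.21, -0.35 and -0.12 with 5-FU and did not pass either. In that fit DAP3 (0.30, adjusted p = 0.016) and PTCD3 (0.74, adjusted p = 0.0019) rose with TQ, while GADD45GIP1 (-0.03) did not pass.

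For comparison, the 56 cytosolic ribosomal protein genes had medians of -0.001 with TQ, 0.003 with 5-FU and 0.014 with MIX. RPS27L, named after its values were seen, was the 1 that rose, by 1.09 (adjusted p = 1.6e-04) with 5-FU and 0.94 (adjusted p = 7.4e-04) with MIX. The 65 subunits of oxidative phosphorylation, the complexes whose mitochondrial parts this ribosome makes, had a median of 0.151 with 5-FU and 0 calls. At an unadjusted p under 0.05, 9 of them were higher and 0 lower, against 1304 and 1037 of all 11963 genes. The fit that left out the displaced arrays had 9 that rose and 2 that fell, when 14.9% of all genes rose and 13.4% fell.

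Other probe sets of the 10 genes that have several did not pass with all arrays. That of MRPS30, a protein also known as a programmed cell death gene, gave -1.61 (adjusted p = 0.091) with 5-FU where the main one gave -0.20, and without the displaced arrays both fell, by 0.85 (adjusted p = 4.6e-05) and 0.38. One of MRPS12, the decoding protein of the small subunit, gave 0.79 (adjusted p = 0.068) where the main one gave 0.03, and without the displaced arrays it rose by 0.48 (adjusted p = 0.0021) where the main one gave -0.14. For MRPS18B, 1 of 3 relatives of bacterial S18, the second probe set gave -0.45 with TQ (adjusted p = 0.28) and the main one -0.24. Without the displaced arrays the adjusted p was 0.0023 for the second and 0.064 for the main one. The second probe set of MRPS14, dim at a mean of 5.31, gave 0.81 with TQ (adjusted p = 0.56), opposite in sign to the main one at -0.04. Without the displaced arrays this second probe set passed with TQ (0.81, adjusted p = 0.0013), 5-FU (0.62, adjusted p = 0.0083) and MIX (0.59, adjusted p = 0.014). MRPL11, at the base of the stalk, has 1 probe set and gave -0.13 with TQ, 0.16 with 5-FU and 0.15 with MIX.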

How the data were processed

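The authors normalized 12 Affymetrix Human Genome U133A 2.0 arrays of RKO cells with RMA and deposited log2 signals, taken here without rescaling. The methods name GeneSpring for this step and the submitters' processing notes name Affymetrix Expression Console, so the software is unsettled. RMA forces arrays to a common distribution, and a change shared by most genes is lost. Tests excluded 62 control probe sets.

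All 12 arrays entered a single model in limma 3.58.1 (R 4.3.3) that gave each group its own mean, with moderated variances and two-sided p-values adjusted by Benjamini-Hochberg over 22215 probe sets for each contrast. The threshold was an adjusted p under 0.05. Of the probe sets, 19064 name 1 gene, 1043 several and 2108 none. All 51 symbols are current, and 1 probe set of several genes, with an MRPS symbol, was not used. Groups come from the labels. An exact permutation test of 3 arrays per group cannot go below p = 0.1 and was not used.

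The members and lists were chosen with earlier results of these data known. Genes named are those past the threshold, the 3 largest changes each way per comparison with control, the smallest p-values of the other contrasts, and proteins with a well-known role of their own; others are named where a count or fit needs them. The alternatives were ANOVA with Tukey's HSD and a t-test as in the methods, fits of the compared groups only, a replicate block, quantile normalization, centring, a filter on the 30% dimmest probe sets, the mean of a gene's probe sets, array weights, another variance prior, and leaving out each array. Leaving out 2 displaced arrays was added after the data were seen. On simulated data the fit recovered 54% of 2-fold changes for TQ, 60% for 5-FU and 34% for MIX among 22215 probe sets, and 14%, 10% and 16% of 1.5-fold ones. Each figure rests on 50 changed probe sets. The simulated noise had 1 spread per probe set, shared by all 4 groups, so the figures differ between treatments only by the random draw. The displaced arrays were not reproduced in it. Plots used matplotlib 3.10.9 under Python 3.11.15.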

Additional observations from a re-analysis of the deposited data

How the results depend on the processing

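Counts of calls depended on how the displaced arrays were treated. The numbers of the 51 genes called on all 12 arrays were 2 for any difference between groups, 0 for TQ, 3 for 5-FU and 1 for MIX against control, 0 for MIX minus 5-FU, 0 for MIX minus TQ, 4 for TQ minus 5-FU and 0 for the interaction. In the same order, array weights gave 42, 22, 25, 25, 22, 27, 26 and 25, and leaving out both displaced arrays gave 25, 7, 22, 11, 3, 5, 19 and 10. Shares of all genes stand above for all 12 arrays and for the fit without both displaced arrays. They are not given for the other settings, so those counts do not show whether these genes differ from all genes. In both of these settings MRPS22 and MRPS31 changed sign with 5-FU, to 0.36 and 0.54.

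The ANOVA with Tukey's HSD of the methods gave 5 for any difference, 5 for 5-FU, 2 for MIX minus 5-FU and 3 for MIX minus TQ. The t-test of the methods gave 4 for TQ and 0 for 5-FU and for TQ minus 5-FU. Limma on the compared groups alone gave 5 for TQ (3 higher, MRPL48, MRPS10 and MRPS31, and 2 lower, MRPL40 among them), 0 for 5-FU and 0 for TQ minus 5-FU. Median centring gave 1 for any difference, 0 for MIX and 2 for TQ minus 5-FU, and quantile normalization gave 4 for any difference. Leaving out the dimmest probe sets gave 5 for 5-FU, and a variance prior with trend and robust fitting gave 6 for any difference and 5 for 5-FU.

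Leaving out 1 array at a time, calls ranged from 1 to 14 for any difference, 0 to 2 for TQ, 0 to 17 for 5-FU, 0 to 5 for MIX, 0 to 1 for MIX minus 5-FU, 0 to 7 for MIX minus TQ, 1 to 10 for TQ minus 5-FU and 0 to 0 for the interaction. The highest values above 0 were those without 5-FU replicate 3, and the lowest for 5-FU was reached without control replicate 1. The median change ranged from -0.158 to -0.092 for TQ, -0.157 to -0.075 for 5-FU and -0.033 to 0.094 for MIX, so that of MIX has no settled sign; under the other settings TQ and 5-FU kept theirs.

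For samples with the same replicate number the mean correlations of deviations were 0.077, -0.158 and -0.146. Single correlations ran from -0.646 to 0.859, -0.836 to 0.484 and -0.613 to 0.613. The 2 displaced arrays have different replicate numbers, and their deviations enter these values. This check therefore cannot tell whether the numbers pair the arrays. With the replicate block, calls were 1 for any difference, 2 for 5-FU, 0 for MIX and 1 for TQ minus 5-FU. The cause of these changes was not tested. In the simulated data, 1.5-fold changes were mostly missed, with 14% recovered for TQ, 10% for 5-FU and 16% for MIX. The fit without the 2 displaced arrays called 22 of the 51 genes with 5-FU, and 0 of the 51 changed by 2-fold or more. Whether the number of arrays or their spread limited the calls was not tested.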
